A study of Homo sapiens with 24 samples.

Results

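The genes described here build, license and run the DNA replication machinery or prepare the cell for S phase, the part of the cell cycle in which DNA is copied. They were chosen by name, as a list of 40, and no measured value entered the choice. The count table of 21925 entries held 33 of the 40, and all 33 passed the filter on low counts. MCM5, CDC45, GINS1, PCNA, RFC4, POLE and E2F1 were not analysed here.

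The study silenced a candidate GATA1 enhancer, called eHDAC6, or the GATA1 transcription start site in K562 cells, an established human leukaemia line with erythroid character, and sequenced polyadenylated RNA. All groups, controls included, carried a nuclease-dead Cas9 fused to a KRAB repressor domain under a doxycycline-inducible promoter, and all received doxycycline for 24 hours. Each culture held 1 sgRNA. The groups were GATA1TSS-Guide1 and GATA1TSS-Guide2 at the start site, eHDAC6-Guide1 and eHDAC6-Guide2 at the enhancer, and NC-Guide1 to NC-Guide4 as non-targeting controls (NC). With 3 biological replicates per sgRNA, this gave 6 GATA1TSS, 6 eHDAC6 and 12 NC libraries. The labels do not say whether the cells with the repressor were 1 clone or a pool.

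Origins of replication are marked by the origin recognition complex and loaded with the MCM helicase by CDC6 and CDT1 in G1. GINS, CDC45 and MCM10 turn the loaded helicase into a moving fork, primase and polymerase alpha start each strand, and polymerases delta and epsilon extend it with the PCNA clamp, which the RFC complex loads. Many of these genes are transcribed together at the entry to S phase under E2F factors. Erythroid precursors divide rapidly before they leave the cell cycle as they mature.

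Short E2F-like motifs are shown first, because many members hold at least 1 of them and the rule did not use them. The RefSeq promoter table (GRCh38.p14, 250 bases before to 50 after a gene's start) matched 28 of the 33 members. The letters TTTCCCGC, TTTGGCGC, TTTCGCGC and TTTGCCGC were searched on both strands, and overlapping matches were allowed. At least 1 match lay in the promoters of 15 members (53.6%), against 1090 of 27305 genes with a promoter in the table (3.99%) and 2 of 16 G2 and M phase genes (12.5%). By motif, TTTCCCGC lay in 9 members, TTTCGCGC in 6, TTTGGCGC in 4 and TTTGCCGC in 0. The windows below all lie upstream of the start and are written along the gene's strand. They belong to members whose RNA level differed from NC with at least 1 element. Capitals mark 1 match in each. The MCM6 promoter held 4 matches and that of MCM3 held 2. In the MCM6 window another match, TTTGGCGC, overlaps the marked letters.
CDCA7, chr2:173354795-173354826, plus strand: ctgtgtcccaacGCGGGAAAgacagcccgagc
UHRF1, chr19:4909972-4910003, plus strand: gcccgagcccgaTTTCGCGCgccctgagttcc
MCM3, chr6:52284897-52284928, minus strand: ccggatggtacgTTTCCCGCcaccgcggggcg
MCM6, chr2:135876510-135876541, minus strand: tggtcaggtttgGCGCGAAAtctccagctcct
GINS2, chr16:85688966-85688997, minus strand: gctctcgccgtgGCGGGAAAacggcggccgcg
POLA1, chrX:24693769-24693800, plus strand: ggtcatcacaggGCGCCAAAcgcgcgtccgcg
POLA2, chr11:65261897-65261928, plus strand: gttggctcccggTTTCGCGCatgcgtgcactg
The promoters of RRM2, ORC1, CCNE1, PRIM1, MCM10 and RFC1 held none of these letters in the window, and those of MCM2 and GINS3 held a match that is not shown. Members with the letters moved in both directions: CDCA7, UHRF1, MCM3 and POLA2 were called higher and GINS2, MCM6 and POLA1 lower in the comparisons below. A match is a description of the letters and not a binding site.

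GATA1, the targeted gene, fell in both elements. It stood at 363 ± 28.9 CPM (counts relative to the scaled library total; SD, n = 12) in NC, 254 ± 8.72 (n = 6) with eHDAC6 and 84.8 ± 37.1 (n = 6) with GATA1TSS, and was lower with GATA1TSS-Guide2 (53.1 ± 9.67, n = 3) than with GATA1TSS-Guide1 (117 ± 18.0, n = 3). Library totals ran from 4290343 to 23205811 counts. All 7 measured K562 markers, among them HBG1, HBG2, HBZ, HBE1, TAL1 and KLF1, were present and called lower with both elements against all 12 NC libraries. Of 8 markers of other cells, MS4A1, CD14, COL1A2 and ALB were at or near 0, while EPCAM stood at 67.0 CPM in NC and 48.9 CPM with GATA1TSS. Of the 4 that could be tested, 2 were called higher (CD3E among them) and EPCAM lower with GATA1TSS, and 1 was called higher with eHDAC6; the part of these markers in the members' differences was not tested. In bulk RNA, fewer cells in S phase and less RNA per cell cannot be told apart.

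The 12 control libraries were not alike. The first principal component of the controls put NC-Guide3 replicates 2 and 3 and NC-Guide4 replicates 2 and 3 on one side and the other 8 on the other. The summed level of a list of 12 measured amino acid stress genes was 953 to 1115 CPM in those 4 libraries and 2245 to 3719 CPM in the other 8, while it was 663 to 1110 CPM with eHDAC6 and 510 to 915 CPM with GATA1TSS. The summed level of the 7 K562 markers was 7632 to 8775 CPM in the 4 libraries and 11870 to 14130 CPM in the other 8, against 6382 to 9165 CPM with eHDAC6 and 6309 to 10430 CPM with GATA1TSS. Against the 4 libraries 1 of the 7 (KLF1) was called lower with GATA1TSS (median log2 difference -0.11) and 0 by edgeR with eHDAC6 (median -0.11), where 1 had an unadjusted p under 0.05 and DESeq2 called 1. That list and this split come from earlier results of these data. The part of this split in the members' differences was not tested, and the differences of called members are therefore given also against the 4 libraries, whose stress level is nearest to that of the targeted groups. Because the split was found in these data and the 4 resemble the targeted groups in both sums, smaller differences were likely in advance. Values against the 4 are therefore a description and not an independent check.

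A pair of libraries also stood apart for the members, one of them a control. NC-Guide2 replicate 1 (9695494 counts) was the lowest or highest of the 12 NC libraries for 23 of the 33 members, and GATA1TSS-Guide2 replicate 2 (4290343 counts, the shallowest) was the lowest or highest of its 6 for 22. For 14 members both lay outside the other libraries of their element in the same direction, and for 1 in opposite directions. These counts were not made over all genes tested, so they do not show a trait particular to the members. The part of depth was not tested. TK1, for example, stood at 225 CPM in the first against 327 to 398 CPM in the other 11, and at 262 CPM in the second against 350 to 417 CPM in the other 5. CCNE2 stood at 28.1 CPM in the first against 11.4 to 16.8 CPM, and at 25.9 CPM in the second against 12.1 to 22.3 CPM. Thus TK1, CDT1, POLD1 and POLA2 were low and CCNE2, POLA1, PRIM1 and RFC1 high in both libraries. Without these 2 libraries, an alternative chosen after seeing the data, 8 members were higher and 4 lower with GATA1TSS, beside 15% and 14.6% of 13306 genes, and 10 of them were members called with all libraries. With eHDAC6 the same 13 members were called, 3 higher and 10 lower, beside 16.6% and 16% of genes. The members added were POLD3 (log2 difference 0.22, adjusted p = 0.0146 in edgeR) and FEN1 (0.16, adjusted p = 0.0189 in edgeR).

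**Figure D1:**
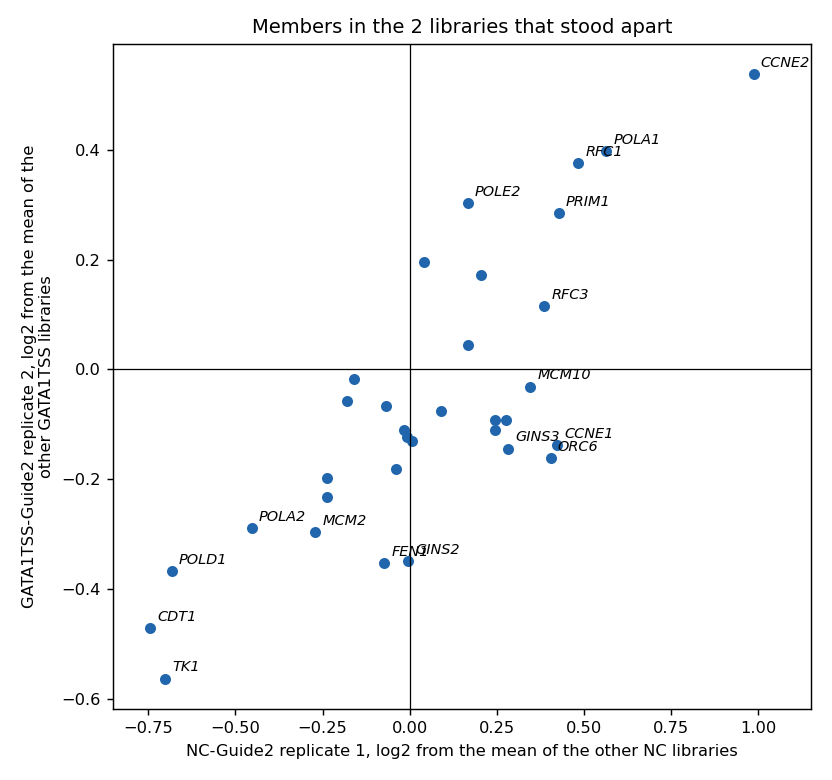
Log2 level of each of the 33 members in NC-Guide2 replicate 1, relative to the mean of the other 11 NC libraries (horizontal axis), and in GATA1TSS-Guide2 replicate 2, relative to the mean of the other 5 GATA1TSS libraries (vertical axis). TK1, CDT1 and POLD1 lie low in both libraries, and CCNE2, POLA1, RFC1 and PRIM1 lie high in both.

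Over the whole set, members moved in both directions. The summed level of the 33 members was 5369 to 5939 CPM in NC, 5416 to 5790 with eHDAC6 and 5334 to 6115 with GATA1TSS. The 3 groups overlapped, and the most abundant members weigh most in this sum. With GATA1TSS, 6 members rose and 4 fell at an adjusted p under 0.05 (edgeR quasi-likelihood test, Benjamini-Hochberg over 13147 genes), beside 13.5% of all genes tested that were called higher and 13.7% lower. With eHDAC6, 3 members rose and 10 fell, beside 15.8% and 15.3% of all genes. The members' median log2 difference was 0.02 with GATA1TSS and -0.05 with eHDAC6, and the median over all genes was close to 0 in both (-0.003 and -0.009). The estimate was positive for 18 of the 33 members with GATA1TSS and 16 with eHDAC6, beside 6496 and 6379 of 13147 genes. Both comparisons use the same controls. When counts were summed per sgRNA, so that the error came from differences between sgRNAs, no member was called in either comparison by edgeR, with unadjusted p under 0.05 for 5 higher and 3 lower with GATA1TSS and 1 higher and 7 lower with eHDAC6. The share of all genes called in that fit is not given here, so these counts do not show a trait particular to the members.

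**Figure D2:**
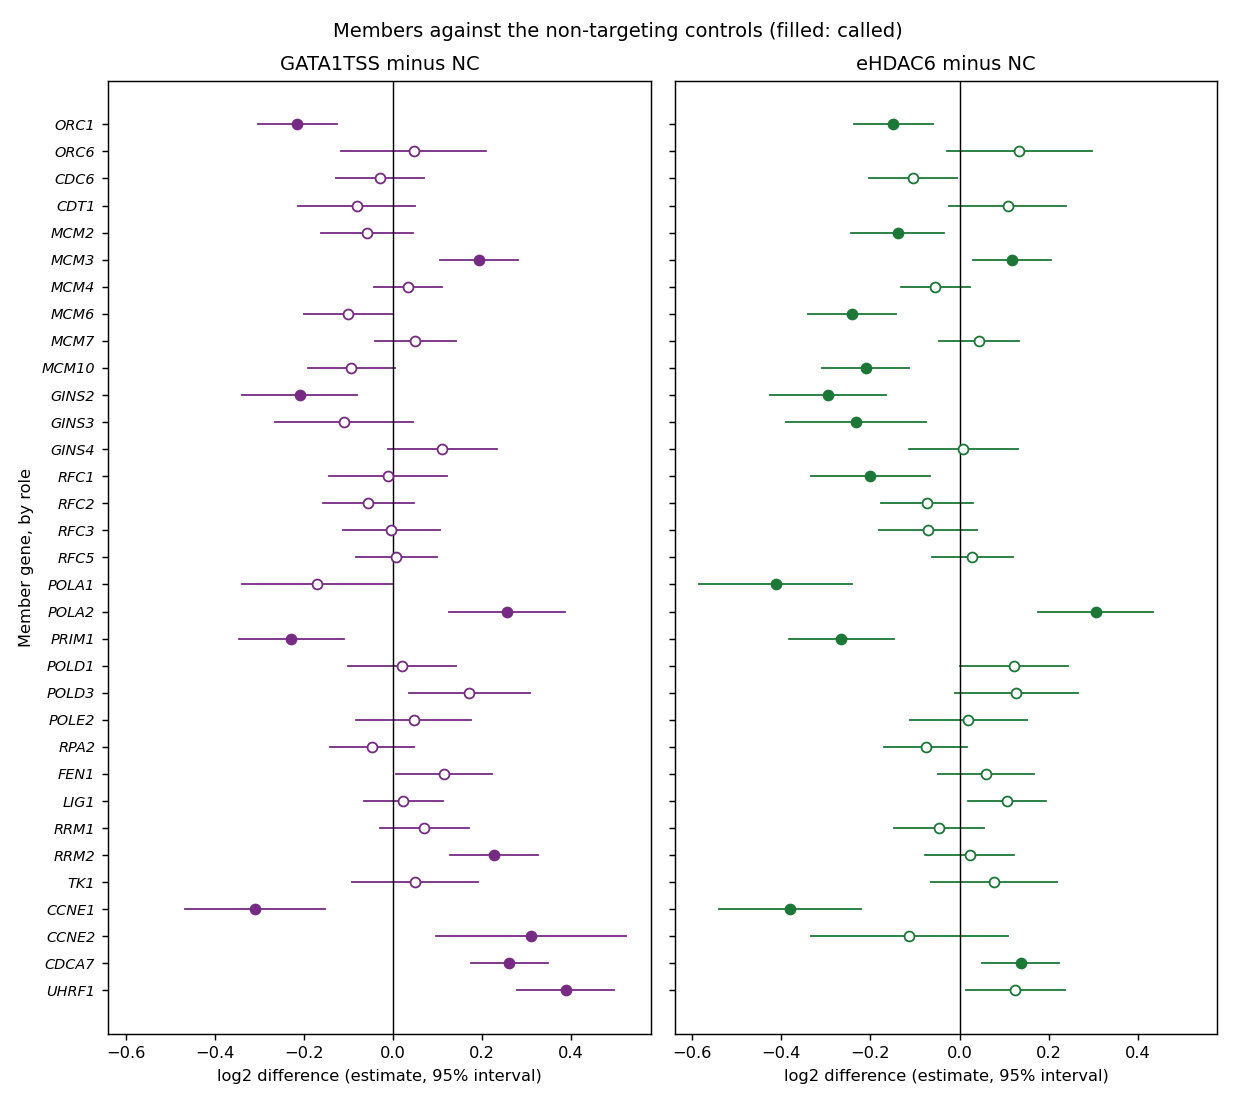
Log2 difference of each of the 33 members (vertical axis, ordered by role) from the 12 NC libraries, with its 95% interval, for GATA1TSS (left) and eHDAC6 (right). Filled points passed an adjusted p of 0.05: 6 higher and 4 lower with GATA1TSS, 3 higher and 10 lower with eHDAC6.

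The number of members called depended on which controls were used. Against the 4 control libraries, 4 members were higher and 1 lower with GATA1TSS, beside 4.84% and 5.39% of 13126 genes. With eHDAC6 none was called in either direction by edgeR, beside 0.899% and 0.587% of genes, with 1 higher and 4 lower at an unadjusted p under 0.05, and DESeq2 called 1 higher. Against the other 8 libraries the counts were 8 higher and 5 lower with GATA1TSS, beside 18.9% and 14.2% of 13730 genes, and 6 higher and 7 lower with eHDAC6, beside 21.3% and 15.8%. UHRF1, CDCA7 and RRM2 were called higher and ORC1 lower with GATA1TSS against each of the 2 sets of controls, and no member was called in opposite directions.

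**Figure D3:**
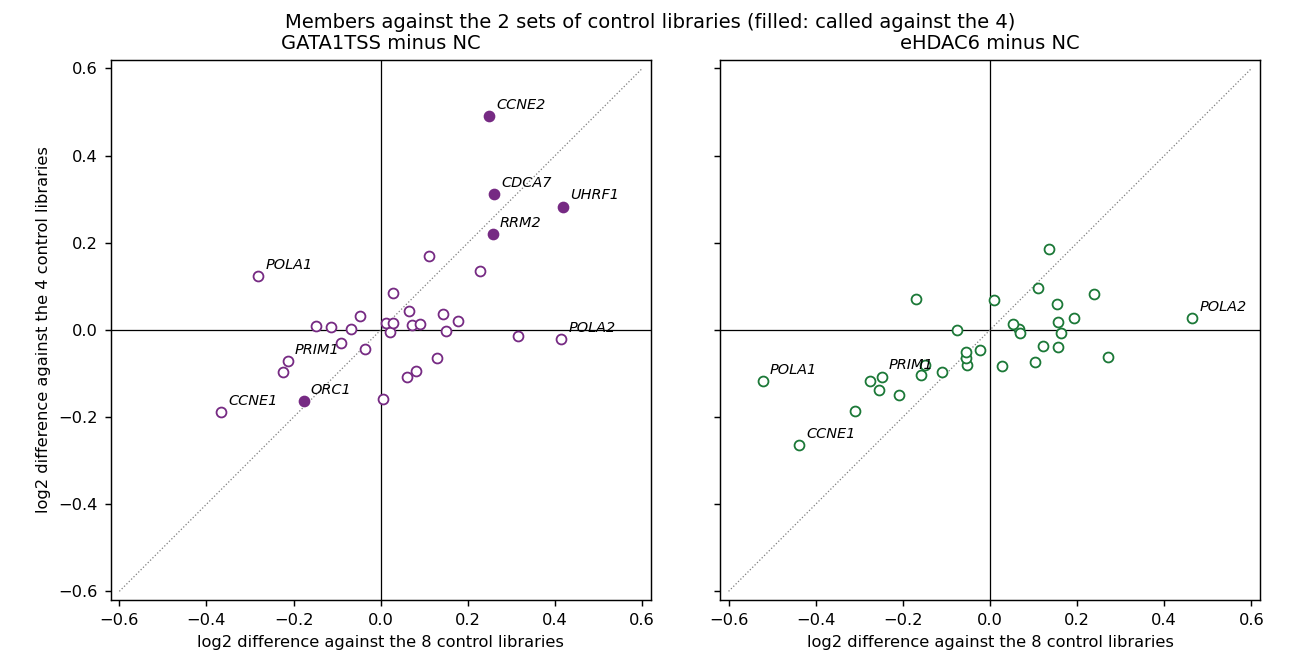
Log2 difference of each member from the 8 control libraries (horizontal axis) and from the 4 (vertical axis), for GATA1TSS (left) and eHDAC6 (right); filled points were called against the 4 and the dotted line marks equal values. CCNE2, CDCA7, UHRF1, RRM2 and ORC1 are filled on the left and none is filled on the right, where POLA1 and POLA2 lie far out along the horizontal axis and near 0 on the vertical one.

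S phase regulators and chromatin proteins held the largest rises with GATA1TSS. Of the 4 measured, UHRF1, CDCA7 and CCNE2 were called higher and CCNE1 lower with that element, while with eHDAC6 only CDCA7 was called higher and CCNE1 lower. UHRF1 recognises hemimethylated DNA behind the fork and brings in the maintenance methyltransferase (hg19 chr19:4903092-4962165, plus strand). Its lowest, median and highest levels were 76.6, 103 and 125 CPM in NC, 102, 107 and 120 CPM with eHDAC6, and 119, 132 and 144 CPM with GATA1TSS. All 6 GATA1TSS libraries lay above the NC mean, and among the controls only NC-Guide4 replicate 2 (125 CPM) reached their lowest value. UHRF1 was 1.31-fold higher with GATA1TSS (log2 difference 0.39 ± 0.06 SE, edgeR adjusted p = 8.26e-06), and 0.28 higher against the 4 controls (edgeR adjusted p = 0.0062). With eHDAC6 its log2 difference was 0.13 (edgeR adjusted p = 0.0916), and 0.02 against the 4 controls (edgeR adjusted p = 0.93).

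CDCA7, a partner of the chromatin remodeller HELLS (hg19 chr2:174219561-174233718, plus strand), had lowest, median and highest levels of 117, 126 and 143 CPM in NC, 134, 137 and 145 CPM with eHDAC6, and 133, 153 and 167 CPM with GATA1TSS. All 12 targeted libraries lay above the NC mean, but the groups overlapped, because NC-Guide2 replicate 1 stood at 143 CPM. CDCA7 rose with GATA1TSS (log2 difference 0.26 ± 0.04 SE, edgeR adjusted p = 6.71e-05) and with eHDAC6 (0.14 ± 0.04 SE, edgeR adjusted p = 0.0203). Against the 4 controls the differences were 0.31 (edgeR adjusted p = 0.000664) and 0.19 (edgeR adjusted p = 0.0982). The eHDAC6 call was lost without eHDAC6-Guide1 replicate 1 (0.12, edgeR adjusted p = 0.0704) or eHDAC6-Guide2 replicate 2 (0.13, edgeR adjusted p = 0.0523), and the GATA1TSS call without GATA1TSS-Guide2 (0.15, edgeR adjusted p = 0.084).

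The 2 cyclins that drive CDK2 at the entry to S phase went in opposite directions with GATA1TSS. CCNE1 (hg19 chr19:30302901-30315215, plus strand) stood at 21.7, 33.1 and 41.3 CPM (lowest, median and highest) in NC, 19.7, 24.5 and 26.3 CPM with eHDAC6, and 22.6, 25.7 and 27.2 CPM with GATA1TSS. All 12 targeted libraries lay below the NC mean, within the lower part of the NC range except eHDAC6-Guide2 replicate 1 (19.7 CPM), which lay under it. CCNE1 fell by 0.31 on the log2 scale with GATA1TSS (SE 0.08, edgeR adjusted p = 0.00489) and by 0.38 with eHDAC6 (SE 0.08, edgeR adjusted p = 0.001). Against the 4 controls the differences were -0.19 (edgeR adjusted p = 0.176) and -0.26 (edgeR adjusted p = 0.129). The GATA1TSS call against all NC libraries was lost without GATA1TSS-Guide1 (-0.29, edgeR adjusted p = 0.0549).

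CCNE2 was the member with the lowest NC level per kilobase of exon (5.62 CPM per kb). Its gene model (hg19 chr8:95892453-95907482, minus strand) overlaps INTS8 on the other strand, so its value is uncertain. It stood at 11.4, 14.45 and 28.1 CPM in NC, 13.1, 14.0 and 15 CPM with eHDAC6, and 12.1, 20.0 and 25.9 CPM with GATA1TSS. The 3 GATA1TSS-Guide2 libraries (20.8, 25.9 and 22.3 CPM) lay above every NC library but NC-Guide2 replicate 1, and the 3 GATA1TSS-Guide1 libraries (12.1, 19.2 and 14.96 CPM) included 1 above those NC libraries and 2 within their range. The log2 difference with GATA1TSS was 0.31 (SE 0.11, edgeR adjusted p = 0.0346, higher in 4 of 6 libraries), 0.49 against the 4 controls (edgeR adjusted p = 0.00626), 0.25 against the other 8 (edgeR adjusted p = 0.125) and 0.04 without GATA1TSS-Guide2 (edgeR adjusted p = 0.904). The call was also lost without any 1 of 8 libraries (NC-Guide1 replicate 2, NC-Guide2 replicates 2 and 3, NC-Guide3 replicate 2, GATA1TSS-Guide1 replicates 2 and 3, GATA1TSS-Guide2 replicates 2 and 3), with log2 differences of 0.22 to 0.32 and edgeR adjusted p from 0.0517 to 0.172.

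**Figure D4:**
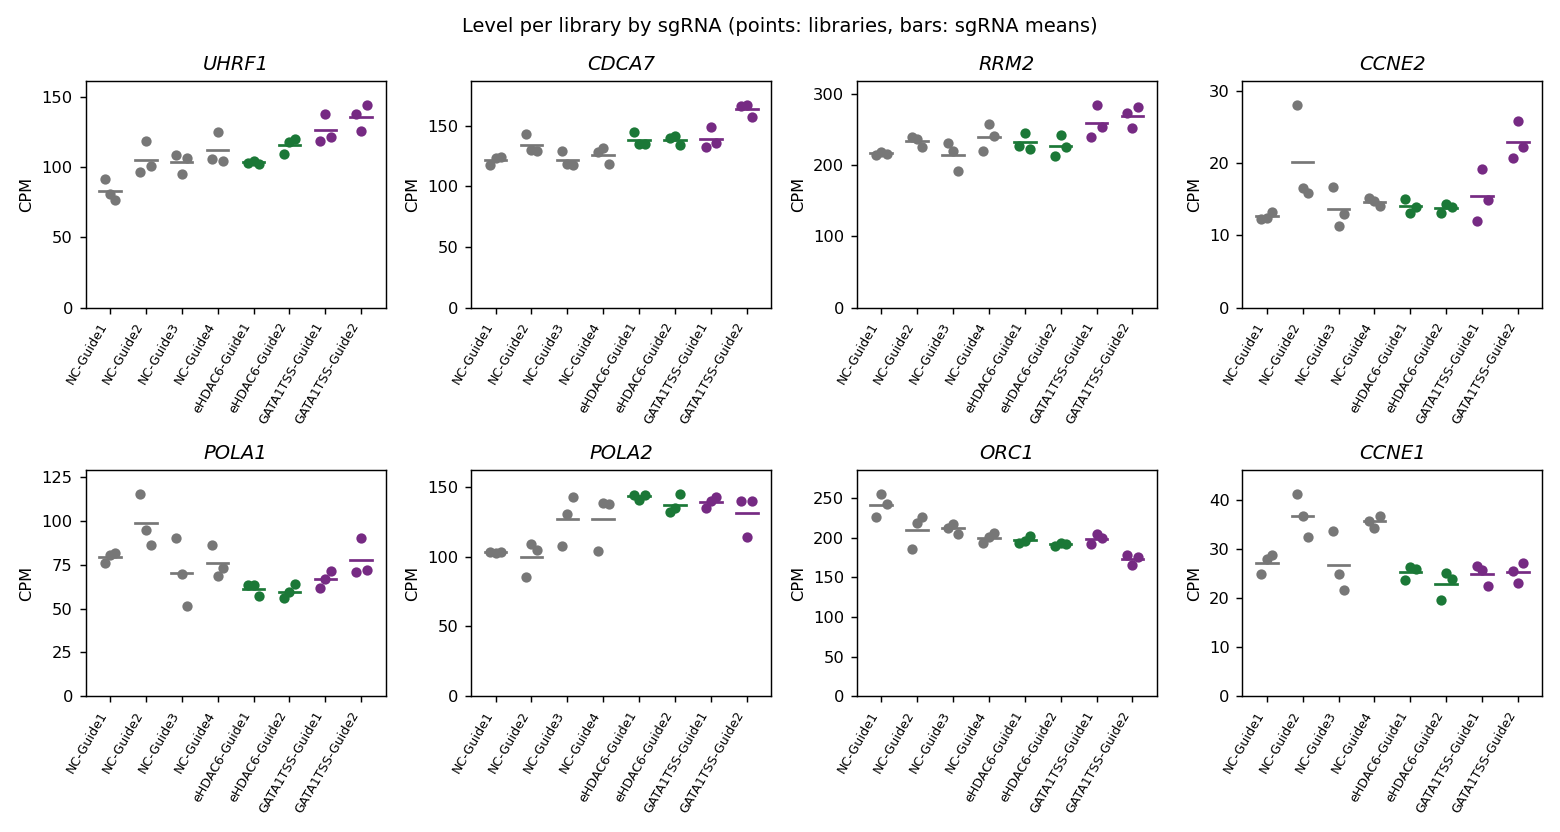
Level in CPM of 8 members in each of the 24 libraries (points), by sgRNA; bars are the means of the 3 libraries. UHRF1 and RRM2 are high with both GATA1TSS sgRNAs, CDCA7 and CCNE2 are highest with GATA1TSS-Guide2 apart from the NC-Guide2 library of CCNE2 at 28.1 CPM, and the NC libraries of POLA1 (51.5 to 115 CPM) and POLA2 (85.2 to 143 CPM) span the values of the targeted ones or nearly so.

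Of the 3 genes for nucleotide supply, RRM2 was called with GATA1TSS and none with eHDAC6 (edgeR unadjusted p from 0.289 up). RRM2 is the small subunit of ribonucleotide reductase, made in S phase (hg19 chr2:10262695-10271546, plus strand). It stood at 192, 222.5 and 258 CPM (lowest, median and highest) in NC, 213, 226 and 245 CPM with eHDAC6, and 239, 263 and 284 CPM with GATA1TSS. Every GATA1TSS library lay above the NC mean, and the upper end of NC (NC-Guide4 replicates 2 and 3 and NC-Guide2 replicate 1) reached the lowest GATA1TSS libraries. RRM2 rose with GATA1TSS (log2 difference 0.23 ± 0.05 SE, edgeR adjusted p = 0.00126; 0.22 against the 4 controls, edgeR adjusted p = 0.0243), and its difference with eHDAC6 was 0.02 (edgeR adjusted p = 0.77). RRM1, the large subunit of the same enzyme, had log2 differences of 0.07 and -0.05 (edgeR adjusted p = 0.333 and 0.515). TK1, the thymidine salvage kinase and the member with the highest NC level per kilobase of exon (222 CPM per kb), had 0.05 and 0.08 (edgeR adjusted p = 0.657 and 0.432).

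Among the 9 genes of origin recognition and licensing, 1 rose and 1 fell with GATA1TSS, and eHDAC6 gave 1 rise and 3 falls. ORC1, the largest subunit of the origin recognition complex (hg19 chr1:52838501-52870143, minus strand), stood at 185, 215 and 255 CPM in NC, 190, 193 and 202 CPM with eHDAC6, and 165, 184.5 and 204 CPM with GATA1TSS. All 12 targeted libraries lay below the NC mean, and the 3 GATA1TSS-Guide2 libraries (177.8, 165.2 and 174.9 CPM) lay below the lowest NC library. ORC1 fell by 0.22 with GATA1TSS on the log2 scale (SE 0.05, edgeR adjusted p = 0.000753) and by 0.15 with eHDAC6 (SE 0.05, edgeR adjusted p = 0.014). Against the 4 controls the differences were -0.16 (edgeR adjusted p = 0.0343) and -0.10 (edgeR adjusted p = 0.366), and without GATA1TSS-Guide2 the first was -0.11 (edgeR adjusted p = 0.209).

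The subunits of the MCM helicase did not move as one. MCM3 (hg19 chr6:52128812-52149679, minus strand) stood at 333, 365 and 413.5 CPM in NC, 376, 402 and 423.5 CPM with eHDAC6, and 400.5, 424 and 441 CPM with GATA1TSS. All 12 targeted libraries lay above the NC mean, with overlap at the top of the NC range. MCM3 rose with GATA1TSS (log2 difference 0.19 ± 0.04 SE, edgeR adjusted p = 0.00167) and with eHDAC6 (0.12 ± 0.04 SE, edgeR adjusted p = 0.0441), and against the 4 controls the differences were 0.14 (edgeR adjusted p = 0.0968) and 0.06 (edgeR adjusted p = 0.634). Without GATA1TSS-Guide2 the GATA1TSS difference was 0.16 (edgeR adjusted p = 0.0695). The eHDAC6 call was lost without any 1 of 14 libraries: NC-Guide1 replicates 2 and 3, NC-Guide2 replicate 1, NC-Guide3 replicate 2, NC-Guide4 replicate 1, eHDAC6-Guide1 replicates 1, 2 and 3, eHDAC6-Guide2 replicates 2 and 3, GATA1TSS-Guide1 replicates 1 and 3 and GATA1TSS-Guide2 replicates 1 and 3 (edgeR adjusted p from 0.0502 to 0.148).

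MCM6 (hg19 chr2:136597196-136634047, minus strand) stood at 220, 252 and 299 CPM in NC, 202, 216 and 232 CPM with eHDAC6, and 223, 235 and 256 CPM with GATA1TSS. All 6 eHDAC6 libraries lay below the NC mean, in part within the NC range. The eHDAC6 difference was a fall, -0.24 (log2, SE 0.05, edgeR adjusted p = 0.000817), and the value against the 4 controls was -0.14 (edgeR adjusted p = 0.248). With GATA1TSS it was -0.10 (edgeR adjusted p = 0.145). MCM2 (hg19 chr3:127317200-127341278, plus strand) stood at 229, 274 and 298 CPM in NC, 224, 249 and 261 CPM with eHDAC6, and 219, 267 and 283 CPM with GATA1TSS. Its eHDAC6 libraries all lay below the NC mean and overlapped NC. MCM2 was called lower with eHDAC6 (log2 difference -0.14, SE 0.05, edgeR adjusted p = 0.0474; -0.08 against the 4 controls, edgeR adjusted p = 0.56). The call held only when the library left out was NC-Guide2 replicate 1, NC-Guide3 replicate 2 or 3, eHDAC6-Guide2 replicate 2 or GATA1TSS-Guide2 replicate 2 or 3, and was lost without any 1 of the other 18 (edgeR adjusted p from 0.0532 to 0.151). Its difference with GATA1TSS was -0.06 (edgeR adjusted p = 0.453). MCM4, MCM7, CDC6, CDT1 and ORC6 were called in neither comparison. The gene model of MCM7 overlaps AP4M1 on the other strand, so its level is uncertain.

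Of the 4 measured genes of helicase activation, 3 fell with eHDAC6, and 1 was called lower with GATA1TSS. MCM10, which helps the activated helicase to open the origin (hg19 chr10:13203554-13253104, plus strand), stood at 76.8, 81.1 and 104 CPM in NC, 69.0, 72.2 and 75.9 CPM with eHDAC6, and 75.2, 77.9 and 83.7 CPM with GATA1TSS. It was the only member whose eHDAC6 libraries all lay outside the range of the 12 NC libraries. How many of all genes tested did so was not counted. The log2 difference with eHDAC6 was -0.21 (SE 0.05, edgeR adjusted p = 0.00244), and against the 4 controls the difference was -0.15 (edgeR adjusted p = 0.206). With GATA1TSS it was -0.09 (edgeR adjusted p = 0.172). The eHDAC6 call of MCM10 was lost without eHDAC6-Guide2 (-0.18, edgeR adjusted p = 0.0685).

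GINS2, a subunit of the GINS complex of the fork (hg19 chr16:85711280-85722588, minus strand), stood at 58.9, 67.7 and 78.9 CPM in NC, 49.4, 56.6 and 64.1 CPM with eHDAC6, and 48.5, 59.2 and 67.7 CPM with GATA1TSS. All 12 targeted libraries lay below the NC mean. GINS2 was called lower with GATA1TSS (log2 difference -0.21, SE 0.07, edgeR adjusted p = 0.0186) and with eHDAC6 (-0.30, SE 0.07, edgeR adjusted p = 0.00155), and against the 4 controls the differences were -0.10 (edgeR adjusted p = 0.505) and -0.19 (edgeR adjusted p = 0.263). The GATA1TSS call was lost without GATA1TSS-Guide1 replicate 1 or 3 or GATA1TSS-Guide2 replicate 2 (edgeR adjusted p from 0.0517 to 0.0612). That call was also lost without GATA1TSS-Guide2 (-0.16, edgeR adjusted p = 0.177) or NC-Guide2 (-0.17, edgeR adjusted p = 0.0841). The eHDAC6 call of GINS2 was lost without eHDAC6-Guide1 (-0.19, edgeR adjusted p = 0.145). GINS3, another subunit (hg19 chr16:58426298-58440048, plus strand), stood at 21.2, 25.6 and 31.2 CPM in NC and 20.1, 21.95 and 25.8 CPM with eHDAC6. All 6 eHDAC6 libraries lay below the NC mean and overlapped the NC range, and GINS3 was called lower (-0.23, SE 0.08, edgeR adjusted p = 0.0284; -0.12 against the 4 controls, edgeR adjusted p = 0.578), and the call was lost without NC-Guide3 replicate 1, eHDAC6-Guide1 replicate 1 or 3, or eHDAC6-Guide2 replicate 1 or 2 (edgeR adjusted p from 0.0524 to 0.0983). GINS4, whose model overlaps another on the other strand, was called in neither comparison.

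The clamp loader gave 1 call. None of RFC1, RFC2, RFC3 and RFC5 was called with GATA1TSS (edgeR unadjusted p from 0.302 up, adjusted p from 0.477 up). RFC1, the large subunit (hg19 chr4:39289069-39368001, minus strand), stood at 105.5, 125 and 173 CPM in NC, 92.9, 115 and 117 CPM with eHDAC6, and 112, 123 and 157 CPM with GATA1TSS. All 6 eHDAC6 libraries lay below the NC mean, overlapping NC, and the log2 difference was -0.20 (SE 0.07, edgeR adjusted p = 0.0274; -0.10 against the 4 controls, edgeR adjusted p = 0.54). The call was lost without NC-Guide4 replicate 3, any of the 3 eHDAC6-Guide1 replicates or eHDAC6-Guide2 replicate 3 (edgeR adjusted p from 0.0505 to 0.115).

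The polymerase alpha-primase complex, which lays the RNA and DNA primer of each new strand, held the largest fall and the largest rise with eHDAC6. POLA1, its catalytic subunit (hg19 chrX:24712064-25015102, plus strand), stood at 51.5, 81.0 and 115 CPM in NC, 56.0, 61.2 and 64.0 CPM with eHDAC6, and 61.6, 71.2 and 90.3 CPM with GATA1TSS. POLA2, its accessory subunit (hg19 chr11:65029323-65066156, plus strand), stood at 85.2, 106 and 143 CPM in NC, 132, 142 and 145 CPM with eHDAC6, and 114, 140 and 142 CPM with GATA1TSS. PRIM1, the catalytic primase subunit (hg19 chr12:57125364-57146146, minus strand), stood at 84.0, 109 and 142 CPM in NC, 84.1, 89.5 and 96.7 CPM with eHDAC6, and 81.9, 91.4 and 109 CPM with GATA1TSS. So with eHDAC6 POLA1 and PRIM1 sat low and POLA2 high, within the NC range except for POLA2 libraries just above it.

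POLA1 fell most with eHDAC6 (-0.41 on the log2 scale, SE 0.09, edgeR adjusted p = 0.000936), while PRIM1 fell by 0.27 (SE 0.06, edgeR adjusted p = 0.00175) and POLA2 rose by 0.31 (SE 0.07, edgeR adjusted p = 0.0011). With GATA1TSS, PRIM1 fell by 0.23 (SE 0.06, edgeR adjusted p = 0.00557), POLA2 rose by 0.26 (SE 0.07, edgeR adjusted p = 0.00466), each in 5 of 6 libraries, and POLA1 differed by -0.17 (SE 0.09, edgeR adjusted p = 0.151). The same genes differed between the 2 sets of control libraries, given without a test since the sets were found in the data: POLA2 stood at 102 ± 7.34 CPM (SD, n = 8) and 138 ± 4.96 CPM (n = 4), and POLA1 at 88.9 ± 12.2 CPM and 65.6 ± 9.62 CPM. Against the 4 libraries POLA2 differed by -0.02 with GATA1TSS (edgeR adjusted p = 0.881), where the sign turned, and by 0.03 with eHDAC6 (edgeR adjusted p = 0.888). POLA1 then differed by 0.12 with GATA1TSS (edgeR adjusted p = 0.409; -0.28 against the other 8, edgeR adjusted p = 0.00399) and by -0.12 with eHDAC6 (edgeR adjusted p = 0.543), and PRIM1 by -0.07 and -0.11 (edgeR adjusted p = 0.574 and 0.476). Without GATA1TSS-Guide1, the GATA1TSS calls of PRIM1 (-0.17, edgeR adjusted p = 0.131) and POLA2 (0.22, edgeR adjusted p = 0.0867) against all 12 controls were lost. The eHDAC6 call of PRIM1 was lost without eHDAC6-Guide2 (-0.19, edgeR adjusted p = 0.115).

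The other polymerase subunits and the flap and ligation enzymes were not called by edgeR with either element. POLD3, an accessory subunit of polymerase delta, had a log2 difference of 0.17 with GATA1TSS (edgeR adjusted p = 0.068), and POLD1, its catalytic subunit, 0.12 with eHDAC6 (edgeR adjusted p = 0.134). Against the 4 controls these were -0.02 and -0.01 (edgeR adjusted p = 0.932 and 0.975). For POLE2 and RPA2 the differences lay between -0.08 and 0.05. FEN1, the flap nuclease that trims Okazaki fragments, had 0.11 with GATA1TSS (edgeR adjusted p = 0.125; 0.02 against the 4 controls, edgeR adjusted p = 0.897). LIG1, the ligase that joins them, had 0.11 with eHDAC6 (edgeR adjusted p = 0.0709; 0.10 against the 4 controls, edgeR adjusted p = 0.437), and DESeq2 called it higher (adjusted p = 0.0392).

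Directly between the elements, 1 member was lower with eHDAC6 than with GATA1TSS and none higher, beside 0.654% and 0.875% of all genes. This was UHRF1 (log2 difference -0.26, SE 0.07, edgeR adjusted p = 0.037), and all 6 eHDAC6 libraries lay below the GATA1TSS mean although the lowest GATA1TSS library (119 CPM) lay under the highest eHDAC6 library (120 CPM). The call was lost without any 1 of 12 libraries (NC-Guide1 replicate 2, NC-Guide4 replicate 3, all 6 of eHDAC6, GATA1TSS-Guide1 replicates 2 and 3 and GATA1TSS-Guide2 replicates 1 and 3), with edgeR adjusted p from 0.0509 to 0.126. Next came RRM2 (-0.20, edgeR adjusted p = 0.0724) and CCNE2 (-0.42, edgeR adjusted p = 0.0909). Without the 2 libraries that stood apart, RRM2 was called lower too (-0.23, edgeR adjusted p = 0.0443), which made 2 lower and 0 higher by edgeR, beside 0.857% and 1.06% of genes. Of the 33 members, 8 had a higher estimate with eHDAC6, beside 6534 of 13147 genes. The members' median log2 difference was -0.07, against -0.001 over all genes. At an unadjusted p under 0.05 there were 1 higher and 8 lower members by edgeR, and all genes were not counted at that threshold.

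Between the 2 GATA1TSS sgRNAs, whose GATA1 levels differed by -1.10 on the log2 scale, no member was called by edgeR, beside 1.77% of all genes higher and 1.7% lower with GATA1TSS-Guide2. At an unadjusted p under 0.05, a threshold at which all genes were not counted, there were 2 higher and 4 lower members, and DESeq2 called 1 higher. The 2 higher were CDCA7 (163 ± 5.66 against 139 ± 8.74 CPM, n = 3 each, log2 difference 0.23, edgeR adjusted p = 0.0729) and CCNE2 (23.0 ± 2.65 against 15.4 ± 3.61 CPM, 0.56, edgeR adjusted p = 0.078), and in both genes the 3 libraries of each sgRNA did not overlap. The 4 lower were TK1 (-0.30), CDT1 (-0.25), POLD1 (-0.23) and ORC1 (-0.20), with edgeR adjusted p from 0.141 to 0.217. For TK1, POLD1 and ORC1 the 3 libraries of each sgRNA did not overlap either. How many of all genes were separated in this way was not counted. TK1, CDT1 and POLD1 were also low in GATA1TSS-Guide2 replicate 2, and without the 2 libraries that stood apart the differences were -0.16, -0.14 and -0.15 (edgeR adjusted p from 0.253 to 0.4). In that fit ORC1 differed by -0.17, CDCA7 by 0.22 and CCNE2 by 0.48, none of them called by edgeR.

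Between the 2 eHDAC6 sgRNAs no member was called by edgeR or DESeq2, and none had an unadjusted p under 0.05 in either tool, beside 0.0152% of all genes higher and 0% lower. Among the 4 control sgRNAs, which target nothing, 6 members differed in 1 edgeR test over the 4, beside 12.3% of all genes: CDT1, POLA2, PRIM1, POLD1, CCNE1 and UHRF1. CDT1, the licensing factor that loads the helicase, had the lowest adjusted p (edgeR adjusted p = 0.00904), with means of 382, 247, 328 and 307 CPM for NC-Guide1 to NC-Guide4. UHRF1 had means of 83.1, 105.5, 104 and 112 CPM (edgeR adjusted p = 0.0188), so that its low control was NC-Guide1. POLA2, PRIM1, CCNE1 and UHRF1 were also called against NC, and their control sgRNAs differed among themselves.

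Other replication genes, listed by role and not members, moved in both directions as well. With GATA1TSS the counts higher and lower were 0 and 3 of 11 for origin licensing and firing, 2 and 1 of 16 for fork and polymerase, 0 and 1 of 5 for nucleotide supply, 2 and 1 of 13 for E2F and S phase control, and 3 and 0 of 7 for chromatin assembly. With eHDAC6 they were 0 and 2, 3 and 2, 0 and 1, 0 and 2, and 1 and 2 of the same numbers. The medians of these 5 lists, in that order, were 0.04, -0.01, -0.11, 0.03 and 0.10 with GATA1TSS and -0.004, -0.08, -0.04, -0.06 and 0.05 with eHDAC6, so licensing and firing had 3 falls and a median above 0 with GATA1TSS. Against the 4 controls edgeR called 1 lower gene in each of licensing and firing and nucleotide supply with GATA1TSS and 0 in the other 3 lists, where 4 were higher and 1 lower at an unadjusted p under 0.05 and DESeq2 called 0. With eHDAC6 it called 1 lower gene, of E2F and S phase control, and 0 in the other 4 lists, where 1 was higher and 2 lower at an unadjusted p under 0.05 and DESeq2 called 0. POLD4, the small subunit of polymerase delta, rose from 67.7 CPM to 86.8 with GATA1TSS (0.37, edgeR adjusted p = 0.00102) and to 83.2 with eHDAC6 (0.30, edgeR adjusted p = 0.00515), and its differences against the 4 controls were 0.17 and 0.10 (edgeR adjusted p = 0.208 and 0.58). CHTF18, part of an alternative clamp loader, rose with eHDAC6 from 93.3 to 129 CPM (0.48, edgeR adjusted p = 0.000955; 0.26 against the 4 controls, edgeR adjusted p = 0.307).

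ASF1B, a histone chaperone, rose with GATA1TSS from 101 to 119.5 CPM (0.25, edgeR adjusted p = 0.00875; 0.23 against the 4 controls, edgeR adjusted p = 0.0729). RPA3, the small subunit of the single-strand binding protein, fell with both, by 0.22 (edgeR adjusted p = 0.0257) and 0.29 (edgeR adjusted p = 0.00459), with differences of -0.04 and -0.11 against the 4 controls (edgeR adjusted p = 0.847 and 0.58). For comparison, of 15 tested G2 and M phase genes 2 rose and none fell with GATA1TSS (median log2 difference 0.06), and 1 rose and 3 fell with eHDAC6 (median -0.02). The 2 that rose with GATA1TSS were CDC20, an activator of the anaphase-promoting complex (0.27, edgeR adjusted p = 0.00202), and BUB1, a checkpoint kinase (0.26, edgeR adjusted p = 0.00131). With eHDAC6, CENPE, a kinetochore motor (-0.46, edgeR adjusted p = 0.00598), MKI67, a proliferation marker (-0.26, edgeR adjusted p = 0.012), and BIRC5, an inhibitor of apoptosis that acts in mitosis (-0.13, edgeR adjusted p = 0.0475), fell and BUB1 rose (0.16, edgeR adjusted p = 0.0435). Against the 4 controls edgeR called no G2 and M phase gene with either element, with 5 higher for GATA1TSS and 2 lower for eHDAC6 at an unadjusted p under 0.05, and DESeq2 called 2 higher with GATA1TSS. There CENPE and MKI67 differed by -0.07 and -0.01 with eHDAC6 (edgeR adjusted p = 0.828 and 0.979).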

How the data were processed

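Polyadenylated RNA of 24 K562 libraries was sequenced from paired ends with a strand-specific method, per the labels' protocols and design text. Raw counts per gene symbol and RefSeq gene models are what the authors deposited. As tools without stated roles or order, the submitters' processing notes list hg19, Bowtie2 2.1.0, Picard, SAMtools 0.1.19 and TopHat2 2.0.8. Neither the program that counted reads nor its handling of strand is given in the sources used, hence the caution on overlapping genes.

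Quasi-likelihood F tests came from edgeR 4.0.16 (R 4.3.3), with TMM factors of 0.951 to 1.03. Filtering by sgRNA (minimum count 10, minimum total 15, proportion 0.7) kept 13147 genes. The model had 1 coefficient per sgRNA, and an element was the mean of its sgRNAs. Adjusted p-values are Benjamini-Hochberg over all genes tested, and a call is an adjusted p under 0.05. Counts at an unadjusted p under 0.05 were made for members and lists only, so no share of all genes stands beside them. Each SE is the log2 difference over the root of F, and it reflects how replicates of 1 sgRNA vary. CPM are counts over the TMM-scaled total. Level per kilobase used the union of exons in the deposited models. The fit was tested on simulated counts. No library pair had identical counts.

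Described in full were up to 8 called members per direction in each element against NC, up to 5 called in the other comparisons, and MCM2; up to 4 called genes per comparison were taken from the other replication lists, and likewise from the G2 and M list. A few genes of the lists are not reported here by name. Uncalled members with values, such as those between sgRNAs, were chosen after their values were seen. The members and lists were chosen with earlier results of these data known. Alternatives were other scalings, no filter, DESeq2 1.42.0, a replicate block, an element model, sums per sgRNA, 2 sets of controls, and omission of each library or sgRNA.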

Additional observations from a re-analysis of the deposited data

Results flagged for a closer look

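Of 66 groups examined (33 members in the 6 eHDAC6 and the 6 GATA1TSS libraries), 8 held a library whose gap to the nearest other exceeded Dixon's 95% limit. About 5% of single normal samples pass that limit. Each group here held 2 sgRNAs and all members share the same libraries, so the 8 cannot be weighed against that rate. Of the 8, 4 came from GATA1TSS-Guide2 replicate 2, the shallowest library: MCM2 at 219.3 CPM (others 260 to 283), RFC1 at 157.2 CPM (others 112 to 127), POLA1 at 90.33 CPM (others 61.6 to 72.1) and POLA2 at 114 CPM (others 135 to 142). GATA1TSS-Guide2 replicate 1, the deepest library, was high for ORC6 at 62 CPM (others 43.2 to 49.9) and for POLD3 at 54.28 CPM (others 45.5 to 48.8). With eHDAC6, RFC1 was low in eHDAC6-Guide2 replicate 3 at 92.92 CPM (others 111 to 117), and RFC2 was high in eHDAC6-Guide1 replicate 2 at 117.8 CPM (others 94.4 to 102).

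UHRF1 differed between the elements in a direct test, with a log2 difference of -0.2625 (eHDAC6 minus GATA1TSS, edgeR adjusted p = 0.037).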

How the results depend on the processing

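Of the called members, 8 of 10 with GATA1TSS and 8 of 13 with eHDAC6 kept their call in every fit without 1 library, 2 and 4 in every fit without 1 sgRNA, and none in all other settings, since sums per sgRNA called no member. With GATA1TSS the 6 higher members became 0 with sums per sgRNA and 3 without GATA1TSS-Guide2, and the 4 lower became 0 with sums, 1 against the 4 controls, 2 without GATA1TSS-Guide1 and 2 without GATA1TSS-Guide2. With eHDAC6 the 3 higher became 1 without a filter, 0 with sums, 0 against the 4 controls, 6 against the other 8, 1 without either of its sgRNAs, and 1 to 5 without 1 library. The 10 lower became 0 with sums, 0 against the 4, 5 without eHDAC6-Guide1 and 4 without eHDAC6-Guide2. ORC1, MCM2, MCM3, GINS3, RFC1 and CDCA7 with eHDAC6 lost their call in both fits that left out 1 eHDAC6 sgRNA. Fewer samples enter the fits that leave out an sgRNA or controls; in the others the cause was not tested. Shares of all genes called are given above for the 2 sets of controls and without the 2 libraries that stood apart. For the other settings they are not given here, so the changed counts do not show a trait particular to the members.

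Between elements, the 1 lower member became 2 with library totals only, without a filter, with DESeq2, without NC-Guide2, without NC-Guide3 and without both libraries that stood apart (chosen after seeing the data), 3 without GATA1TSS-Guide1, and 0 with the element model (5 at an unadjusted p under 0.05), with sums, without eHDAC6-Guide1, eHDAC6-Guide2 or GATA1TSS-Guide2; without 1 library it was 0 to 2. Between the GATA1TSS sgRNAs, 1 member was higher with upper-quartile factors, with DESeq2 and without NC-Guide2, and 0 to 2 without 1 library. POLA2 with GATA1TSS turned to -0.02089 against the 4 controls. Samples share only a replicate number across sgRNAs: over 84 same-numbered pairs the deviations from sgRNA means had a median r of 0.0158, against -0.00592 for 168 other pairs, and 8 exceeded 0.1. With a replicate block, 6 members were higher and 4 lower with GATA1TSS, and 2 higher and 9 lower with eHDAC6. Depth of the shallowest library, 4290343 counts, limits the low members.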
